A study of Mus musculus with 9 samples.

Results

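Brains of mice that had a transient occlusion of the middle cerebral artery followed by an injection of vascular endothelial growth factor (VEGF) into a cerebral ventricle were compared with brains of sham-operated mice. The samples were chosen by their titles: 3 arrays titled as the VEGF group and 3 titled as the sham group, 6 of the 9 arrays in the series. The other 3 arrays, from mice with the same occlusion and vehicle (called MCAO below), entered the fit as the third group and are given beside the results. Every mouse was an adult male C57BL/6, with no transgene or deletion stated.

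VEGF mice were 50, 50 and 53 days old, had a 90 min occlusion, and were given human VEGF-A165, a recombinant protein (1 µl of 10 µg/ml in phosphate-buffered saline), into the right lateral ventricle 3 h after reperfusion. MCAO mice, aged 50, 52 and 53 days, had the same closure and the same volume of saline by the same route. Sham mice, aged 50, 52 and 52 days, had sham surgery, and no ventricular injection is stated for them. Brains were taken 24 h after reperfusion, 21 h after the injection, and different mice were used in each of 3 experiments, so an array stands for a separate sample. The labels do not say which part of the brain was used. The protein injected was human and the array measures mouse RNA, so no probe checks that the injection was made. The series' title asks how VEGF affects expression after ischaemic stroke, and this comparison shows the sum of occlusion, injection and VEGF against surgery alone.

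In focal ischaemia, loss of blood flow stops energy supply, and neurons in the core die within hours. Dying cells activate microglia, astrocytes and the endothelium, which release chemokines and cytokines and display adhesion molecules, and neutrophils and then monocytes enter from the blood. VEGF-A acts on endothelial cells through its receptor tyrosine kinases Kdr and Flt1 with neuropilins as co-receptors. It promotes vessel sprouting, opens the blood-brain barrier and, through Kdr, is also known to act on neurons and glia.

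Each array held 62976 spots, and from 73.0% to 80.9% of the non-control spots on the 6 arrays were well above background, as the scanner software defines it. Levels are given as log2 of the processed intensity minus the array's 75th percentile, so that 0 is the 75th percentile of the array, and levels of different genes are not compared. The neuronal vesicle protein gene Syt1, a marker of brain tissue, was at 6.41, 6.57 and 6.69 on the sham arrays and at 4.49, 5.66 and 6.47 on the VEGF arrays, so neuronal RNA was present on every array. Array pairs within sham correlated at 0.990 to 0.993 across genes. VEGF array 1 correlated at 0.956 and 0.951 with VEGF arrays 2 and 3, which correlated at 0.983 with each other, and it correlated at 0.973 with MCAO array 1. On the first principal component, which held 57.2% of the variance, sham arrays scored from -104 to -89.8, VEGF array 1 scored 141, MCAO array 1 scored 130, and VEGF arrays 2 and 3 scored 4.21 and -8.01. VEGF array 1 and MCAO array 1 therefore stood apart, and counts are given with and without this pair. They were also the dimmest arrays, with a 75th percentile intensity of 723 and 797 against 1250 to 1770 on the others. VEGF array 1 had the lowest share of spots well above background (73.0%). MCAO array 1 had a scan day of its own and no correction for a spatial trend. The part of these technical differences in the values of the pair was not tested. The 3 sham arrays were on slide 1 and the 6 ischaemic arrays on slide 2, so slide, injection and ischaemia cannot be told apart in any difference from sham.

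Occlusion with VEGF was accompanied by far more rises than falls that passed the test. Of 30828 genes tested, limma's moderated two-sided test with Benjamini-Hochberg adjustment at 0.05 called 748 (2.43%), of which 638 (2.07%) were higher in VEGF and 110 (0.357%) were lower. A further measure of the same spread is that 7235 genes (23.5%) had an unadjusted p under 0.05. The median rise among called genes was 2.75 log2 units and the median fall was -1.59, while the median over all genes tested was -0.12. Rises of over 4 log2 units numbered 160 and falls of over 2 log2 units numbered 30. On the arrays of the dimmer group, 87 of the rises were well above background on none of the sham arrays and 15 of the falls on no VEGF array, so these have only a lower bound. The 3 VEGF and 3 sham values did not overlap for any of the 748, but this was also so for 42.1% of all genes tested. In whole-tissue RNA a change in the number of cells of a type and a change in RNA per cell cannot be told apart.

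The number of calls rested on single arrays. Without sham array 1, 2 or 3 it was 156, 203 or 171, without VEGF array 1 it was 570, and without MCAO array 1, which only contributes to the estimate of spread, it was 3270. Without the pair of arrays that stood apart it was 6173 (20.0%), with 2699 higher (8.76%) and 3474 lower (11.3%), and all 748 genes were among them. Rises outnumbered falls with all arrays and not without this pair. Among the 101 called genes that the naming rule chose, 52, 47 and 51 missed the threshold without sham array 1, 2 and 3, and 13, 14 and 14 without VEGF array 1, 2 and 3, all with the direction kept. Gfap, Shank3, Gzmb, Nr4a2, Stpg1 and Gm10754 were among those that missed it whichever VEGF array was left out, with adjusted p from 0.0512 to 0.114.

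The 12 largest rises with a gene symbol included genes of secreted immune proteins, of myeloid receptors and of a matrix protease and its inhibitor. Genes with no sham array well above background were ranked by their lower bound, so that some with a larger measured difference, such as Msr1 at 8.39, are not among the 12. Saa3, an acute-phase serum amyloid protein made by macrophages and other cells, was at -6.78, -4.23 and -6.67 on the sham arrays and at 2.46, 4.62 and 4.80 on the VEGF arrays, a rise of 9.85 ± 1.02 log2 units (standard error of the fit, n = 3 arrays per group, adjusted p = 0.00283). It was well above background on 1 of the 3 sham arrays. Ccl2, the main attractant of monocytes, went from -4.23, -4.25 and -4.53 to 5.99, 3.18 and 3.96, a rise of 8.72 ± 0.63 (adjusted p = 0.000537). All 3 VEGF arrays were high, with VEGF array 1 the highest. Clec4d, a C-type lectin receptor of myeloid cells, went from -6.87, -6.60 and -7.17 to 2.20, 0.85 and 1.49 and rose by 8.40 ± 0.75 (adjusted p = 0.0014). It too was well above background on 1 sham array, and with normexp background correction, which models the signal above background, the rise was 5.80.

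Mmp3, the matrix metalloproteinase stromelysin 1, was well above background on none of the 3 sham arrays (-8.95, -9.08 and -9.04) and stood at 3.85, 0.47 and -0.37 on the VEGF arrays, at least 293-fold higher (adjusted p = 0.00238). A bound of this kind is the mean of the VEGF arrays against the lowest signal that counted as well above background on each sham array. Cxcl1, a neutrophil attractant, was at -5.97, -6.07 and -6.50 in sham and at 4.26, -0.95 and 1.57 in VEGF, a rise of 7.81 ± 1.1 (adjusted p = 0.011). Il6, a cytokine that drives the acute-phase response through STAT3, was at -7.89, -6.20 and -6.90 in sham and at 3.34, -2.24 and -0.57 in VEGF, a rise of 7.18 ± 1.30 (adjusted p = 0.0287). In both Cxcl1 and Il6 the VEGF arrays spread widely, array 1 being the highest and array 2 the lowest. Without the pair that stood apart the rises were 6.49 for Cxcl1 and 5.59 for Il6, and without VEGF array 3 Il6 missed the threshold (adjusted p = 0.0542). Il6 was well above background on 1 sham array and also missed it with normexp (4.41, adjusted p = 0.108) and without sham array 1, 2 or 3 (adjusted p = 0.145, 0.0896 and 0.115). Cxcl1 missed it without each sham array (adjusted p = 0.0682, 0.0582 and 0.0618).

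Promoters of these 3 genes are shown because they rose together and hold letters of the elements through which inflammatory signals are known to act. Each is the 250 bases before the RefSeq start of the gene on GRCm38.p6, written 5′ to 3′ along the gene. Mmp3 lies at chr9:7445572-7445821 on the plus strand, Cxcl1 at chr5:90890995-90891244 on the plus strand and Il6 at chr5:30012864-30013113 on the plus strand. Capitals mark matches to AP-1 (TGANTCA), kappa-B, interferon-stimulated response and STAT (TTCNNNGAA) elements and to the letters TATAAA of the TATA box, searched on both strands.
Mmp3: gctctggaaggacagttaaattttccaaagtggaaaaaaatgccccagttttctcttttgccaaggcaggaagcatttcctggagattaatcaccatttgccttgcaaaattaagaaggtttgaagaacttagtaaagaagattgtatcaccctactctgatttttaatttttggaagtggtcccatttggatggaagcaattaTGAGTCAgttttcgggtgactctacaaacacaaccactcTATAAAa
Cxcl1: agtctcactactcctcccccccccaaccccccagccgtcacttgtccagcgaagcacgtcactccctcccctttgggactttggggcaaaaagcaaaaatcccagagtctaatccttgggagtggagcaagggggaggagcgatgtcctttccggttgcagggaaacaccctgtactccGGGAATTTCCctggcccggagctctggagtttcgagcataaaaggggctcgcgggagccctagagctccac
Il6: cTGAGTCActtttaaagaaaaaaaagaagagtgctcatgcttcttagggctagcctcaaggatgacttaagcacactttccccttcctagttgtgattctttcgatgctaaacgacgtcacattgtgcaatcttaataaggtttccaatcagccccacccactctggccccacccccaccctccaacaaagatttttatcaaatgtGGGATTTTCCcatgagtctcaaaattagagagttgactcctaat

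Mmp3 held an AP-1 match at -46 to -40 from the start and a TATA match at -7 to -2. Cxcl1 had a kappa-B match at -71 to -62, and Il6 had one at -44 to -35 with an AP-1 match at -249 to -243. Among 27025 promoters of the same length, 6.87% held the AP-1 letters, 0.337% the kappa-B letters and 13% the TATA letters. For the 399 promoters of genes that rose in VEGF the shares were 13% for AP-1, 1.75% for kappa-B and 15.0% for TATA, and no test of these shares was made. A match is a description of the letters and neither a bound site nor a cause.

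The remaining 6 of the 12 rises ranged from 7.09 to 8.08 log2 units. Ptx3, a secreted pentraxin of innate immunity, rose by 8.08 ± 0.77 (adjusted p = 0.00191), from -7.55, -6.17 and -6.23 to 2.72, 0.41 and 1.17. Timp1, the inhibitor of matrix metalloproteinases, was nearly constant in sham at -2.84, -2.83 and -2.74 and reached 5.39, 4.32 and 3.31 in VEGF, a rise of 7.14 ± 0.46 (adjusted p = 0.000399). Tgm1, a transglutaminase, rose by 7.50 ± 0.42 (adjusted p = 0.000208), the smallest error of the 12. Lilrb4a, an inhibitory receptor of myeloid cells, rose by 7.31 ± 0.64, the chemokine gene Ccl4 by 7.16 ± 0.50, and Sirpb1b, a signal-regulatory protein gene, by 7.09 ± 0.53. VEGF array 1 was the highest VEGF array for Ptx3, Timp1, Tgm1, Lilrb4a and Ccl4, and not for Sirpb1b.

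**Figure D1:**
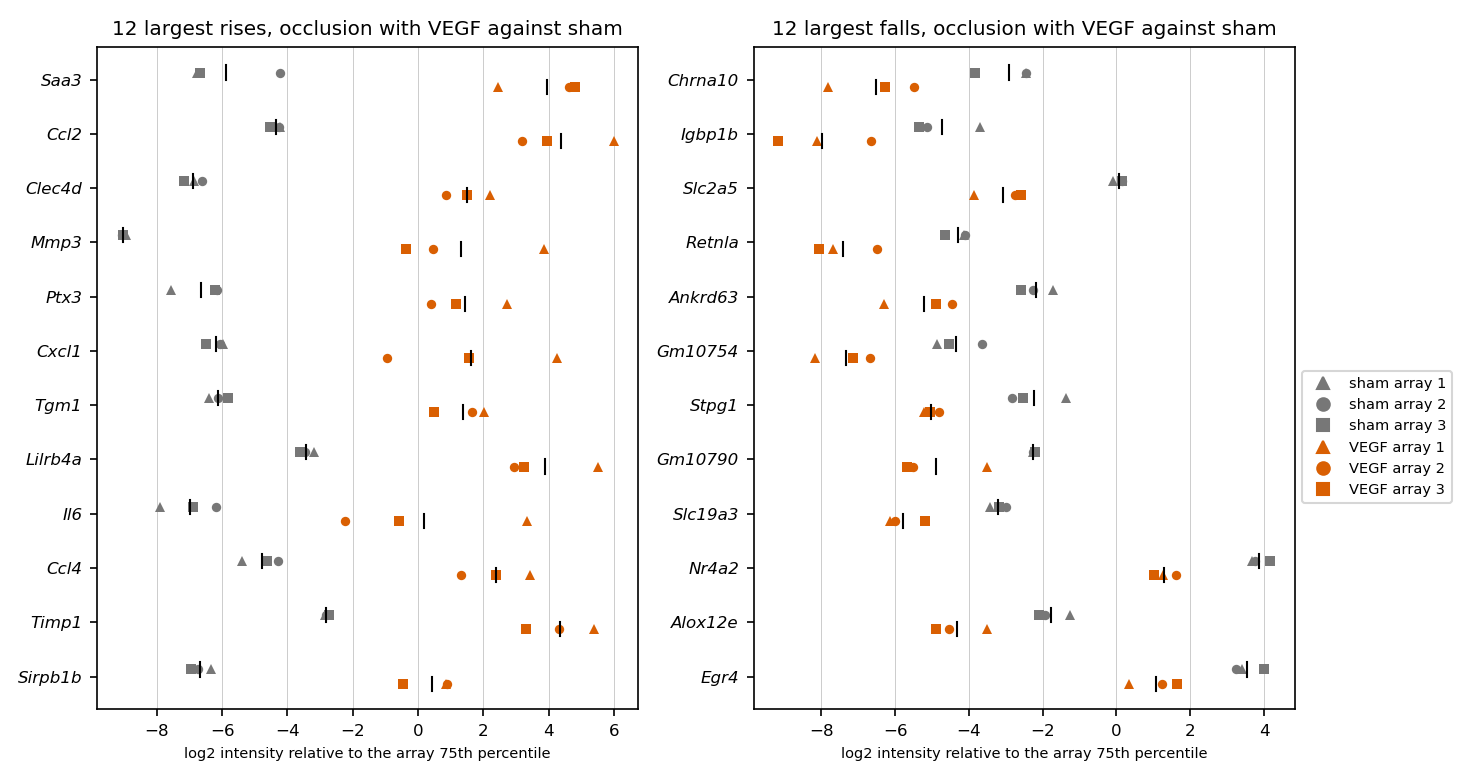
Level of the 12 genes with the largest rise (left) and the 12 with the largest fall (right) in occlusion with VEGF against sham, genes at background in a group being ranked by their bound, as log2 processed intensity relative to the 75th percentile of the array. Each marker is an array (grey sham, orange VEGF, shape by array number) and the black bar is the group mean. Genes were taken only where sham and VEGF values did not overlap, so their separation was set by the choice. Il6 and Cxcl1 have VEGF arrays that span over 5 log2 units.

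The largest falls were smaller than the largest rises and included genes of a receptor subunit, transporters and transcription factors. Chrna10, a nicotinic acetylcholine receptor subunit, was at -2.46, -2.46 and -3.83 in sham and -7.82, -5.49 and -6.28 in VEGF, a fall of -3.61 ± 0.58 (adjusted p = 0.0187). Slc2a5, the fructose transporter, which in brain is found in microglia, was tight in sham at -0.10, 0.16 and 0.15 and low on all VEGF arrays at -3.87, -2.75 and -2.60 (-3.15 ± 0.46, adjusted p = 0.0124). Retnla, a resistin-like secreted protein, differed by -3.11 ± 0.43 (adjusted p = 0.0106) and was still well above background on 1 VEGF array, as were Igbp1b and Gm10754. Slc19a3, a thiamine transporter, differed by -2.57 ± 0.35 (adjusted p = 0.0103) with its brighter probe and by -0.96 with the other (adjusted p = 0.0739 where only probes detected on all 9 arrays were used).

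A pair of genes from the immediate early list was also among the 12 falls. Nr4a2, an orphan nuclear receptor needed by dopamine neurons, was at 3.67, 3.76 and 4.17 in sham and 1.26, 1.62 and 1.01 in VEGF (-2.57 ± 0.52, adjusted p = 0.045). Egr4, an activity-regulated zinc finger factor, was at 3.39, 3.24 and 3.99 in sham and 0.35, 1.24 and 1.65 in VEGF (-2.46 ± 0.35, adjusted p = 0.0115). For both genes, sham and VEGF values lie apart by the rule that chose the 12. Further falls were Igbp1b (-3.25 ± 0.68, adjusted p = 0.049), Ankrd63 (-3.01 ± 0.49), Gm10754 (-2.98 ± 0.60), Stpg1 (-2.78 ± 0.50), Gm10790 (-2.66 ± 0.52) and the lipoxygenase gene Alox12e (-2.54 ± 0.44). Without VEGF array 1 alone, Igbp1b, Nr4a2, Gm10754 and Stpg1 no longer passed (adjusted p = 0.114, 0.103, 0.103 and 0.0752). Of the 12 falls, 5 and 6 did not pass without VEGF array 2 and 3, and 12, 11 and 10 did not without sham array 1, 2 and 3. With normexp 8 of the 12 no longer passed and were smaller, Chrna10 at -1.24, Igbp1b at -0.58, Retnla at -0.65, Gm10754 at -0.69, Slc19a3 at -0.99, Stpg1 at -1.32, Gm10790 at -1.52 and Alox12e at -1.72. Slc2a5, Ankrd63, Nr4a2 and Egr4 still passed there.

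The genes were then read in 49 lists, 30 of pathways and 19 of cell types or brain regions, that hold 860 genes, of which 834 were tested and 148 called. For each list the text gives the number of called members, to be set against the 2.07% of all genes called higher and the 0.357% called lower, and the median difference, to be set against -0.12 over all genes. Counts without the pair of arrays that stood apart are to be set against 8.76% higher and 11.3% lower. The lists are described and not tested.

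**Figure D2:**
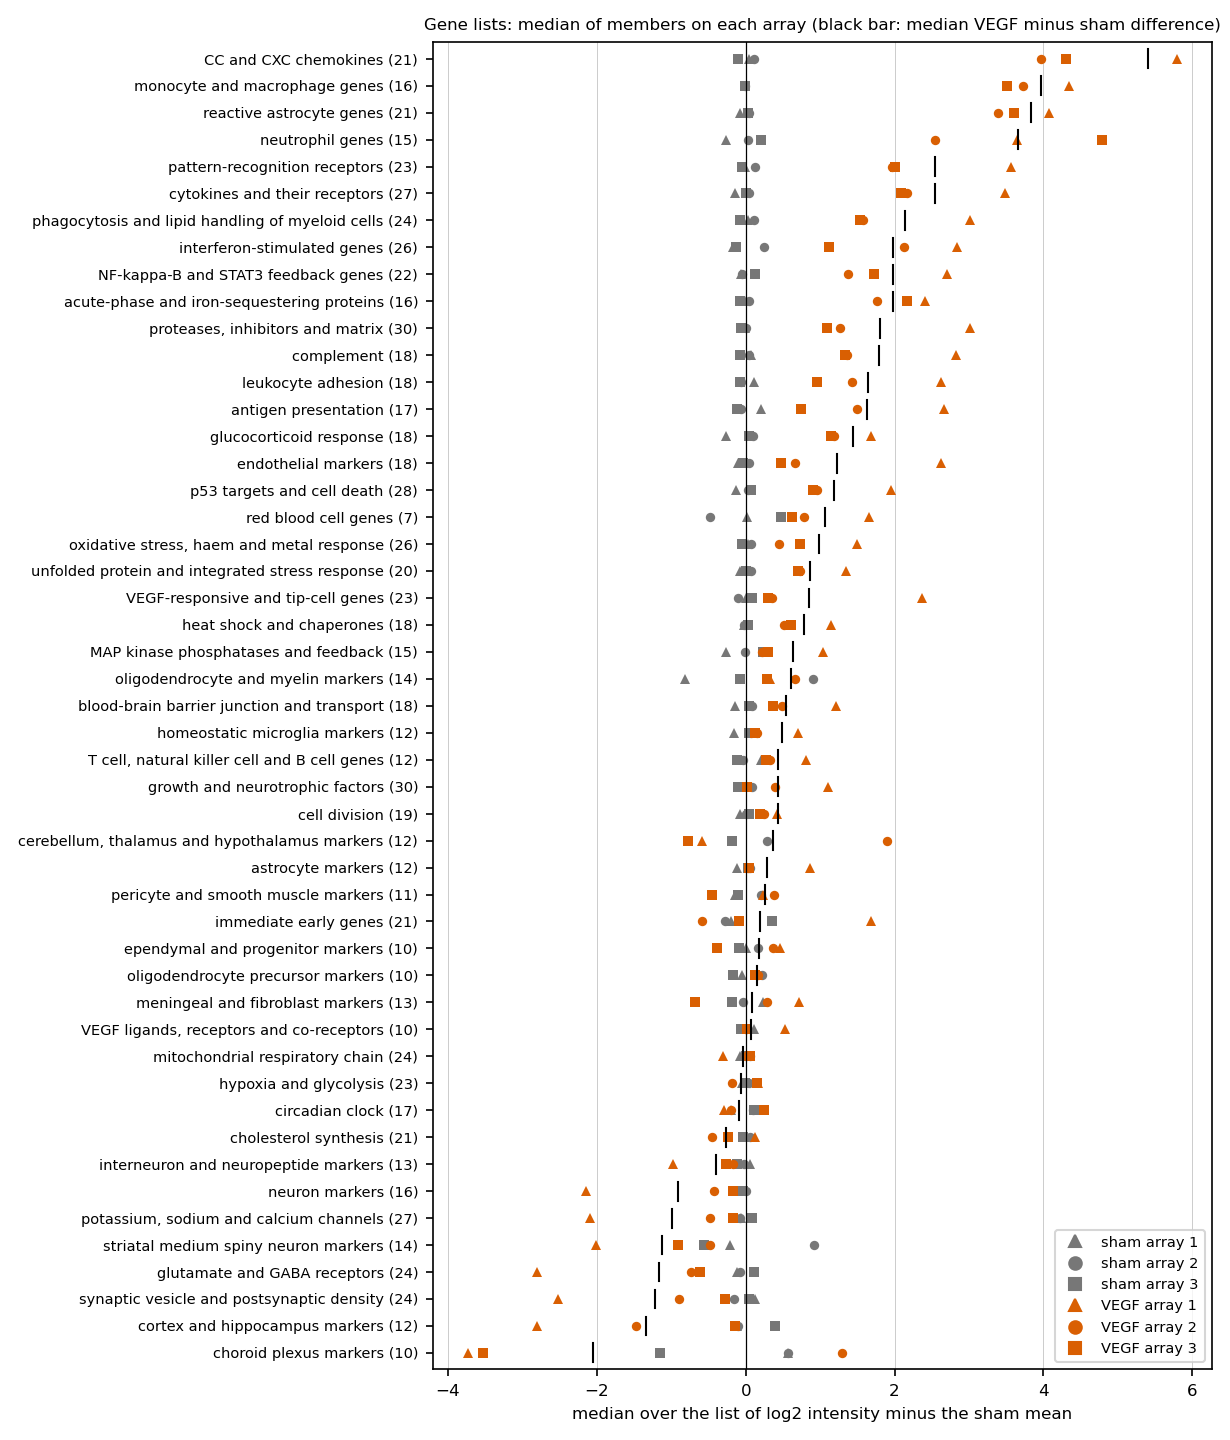
Median over the measured members of 49 gene lists of the log2 level minus the sham mean, on each sham array (grey) and VEGF array (orange), with the number of members in brackets. The black bar is the median over members of the VEGF minus sham difference. Chemokines, monocyte and macrophage, reactive astrocyte and neutrophil genes lie highest on all 3 VEGF arrays, and in most lists VEGF array 1 lies farther from sham than VEGF arrays 2 and 3.

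Chemokines, the proteins that draw leukocytes along a gradient, had the highest median of all lists, except with normexp, where reactive astrocyte genes came first (3.70 against 3.34). Of 21 measured, 13 rose and 0 fell, with a median of 5.41, and per VEGF array the median was 5.79, 3.97 and 4.31 above the sham mean. Without the pair of arrays 17 rose and 2 fell. Besides Ccl2, Ccl4 and Cxcl1, the leukocyte attractants Ccl3 (6.84 ± 0.47, adjusted p = 0.00045) and Ccl12 (5.41 ± 0.38, adjusted p = 0.000475) rose. Ccl12 was nearly equal on the VEGF arrays at 2.30, 2.62 and 2.47, against -3.31, -2.32 and -3.19 in sham. Cxcl10, the interferon-induced T cell attractant, was at -3.06, -2.77 and -2.96 in sham and at 3.98, 1.85 and 1.87 in VEGF (5.50 ± 0.70, adjusted p = 0.00772).

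Among cytokines and their receptors 14 of 27 rose and 0 fell, with a median of 2.54, and 19 rose and 1 fell without the pair of arrays. Tnf, the tumour necrosis factor, went from -5.46, -5.75 and -5.60 to -1.60, -2.10 and -0.41 (4.23 ± 0.47, adjusted p = 0.00405). Il1b, the inflammatory interleukin-1, went from -5.0, -4.80 and -4.09 to 0.31, -0.73 and 1.56 (5.01 ± 0.83, adjusted p = 0.02). Csf3, the growth factor of neutrophils, was well above background on none of the 3 sham arrays and was at least 19.9-fold higher in VEGF (adjusted p = 0.0131). Receptors rose too: the oncostatin M receptor Osmr by 3.84 ± 0.21, the TNF receptor Tnfrsf1a by 3.07 ± 0.36 and the shared beta chain Csf2rb by 3.83 ± 0.50. Not every ligand passed. Osm, the ligand of Osmr, was at 0.94 ± 0.44 (adjusted p = 0.231) with overlapping groups, and Lif, of the same family, was at 3.18 ± 1.09 (adjusted p = 0.147), with -0.79 on VEGF array 1 and -4.90 and -4.91 on arrays 2 and 3.

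The list of NF-kappa-B and STAT3 feedback genes holds inhibitors of the signal and also transcription factors that carry it, among them Stat3 and Rel. Of its members 9 of 22 rose, with 0 falls and a median of 1.98, and 16 rose without the pair of arrays. Bcl3, a nuclear inhibitor-kappa-B protein, rose by 5.55 ± 0.32 (adjusted p = 0.000208). Socs3, the inhibitor of signalling through the IL-6 receptor chain, was at -1.01, -1.54 and -0.39 in sham and at 5.11, 3.55 and 3.54 in VEGF, a rise of 5.05 ± 0.50 (adjusted p = 0.00237). The transcription factor Cebpd rose by 4.12 ± 0.47 and the RNase Zc3h12a by 3.22 ± 0.43. Nfkbia, the main cytoplasmic inhibitor of NF-kappa-B, was higher on all 3 VEGF arrays (5.98, 4.26 and 4.41 against 2.07, 2.70 and 2.58) and did not pass (2.43, adjusted p = 0.0538). The promoter of Socs3 is shown as the STAT3 feedback gene of the list, at chr11:117969367-117969616 on the minus strand of GRCm38.p6, from RefSeq.
Socs3: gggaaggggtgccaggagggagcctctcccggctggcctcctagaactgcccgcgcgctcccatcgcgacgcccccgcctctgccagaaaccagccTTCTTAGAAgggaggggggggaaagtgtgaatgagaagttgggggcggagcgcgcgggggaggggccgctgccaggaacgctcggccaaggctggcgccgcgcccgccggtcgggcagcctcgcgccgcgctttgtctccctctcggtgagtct

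The capitals are a STAT match at -154 to -146. These letters were in 7.18% of all promoters, and of the 399 of genes that rose 13.5% did.

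Pattern-recognition receptors, the sensors of microbial and damaged-cell molecules, rose in 10 of 23 cases with 0 falls and a median of 2.55, and in 16 without the pair of arrays. Tlr1, which pairs with Tlr2, was nearly constant within each group, at -4.68, -4.64 and -4.68 in sham and -0.78, -1.08 and -1.1 in VEGF, a rise of 3.68 ± 0.17 (adjusted p = 0.00017). Tlr2 rose by 4.19 ± 0.37 (adjusted p = 0.0014). The scavenger receptor Msr1 and the lectin receptor Clec4e were well above background on none of the 3 sham arrays and were at least 116-fold and at least 101-fold higher in VEGF (adjusted p = 0.000208 and 0.00317).

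Complement genes rose in 7 of 18 cases with 0 falls and a median of 1.79, and in 14 without the pair of arrays. C5ar1, the receptor for the anaphylatoxin C5a, rose by 6.48 ± 0.51 (adjusted p = 0.000758), and factor B, Cfb, by 4.05 ± 0.57 (adjusted p = 0.0106). C1ra, a protease of the classical pathway, rose by 3.01. C1qa, the recognition chain made by microglia, was at 4.93, 3.12 and 3.35 against 2.19, 1.95 and 1.93 and did not pass (1.78, adjusted p = 0.083).

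Among acute-phase and iron-sequestering proteins 6 of 16 rose, 0 fell and the median was 1.98, with 9 rises without the pair. Lcn2, which binds bacterial iron carriers and is released by reactive astrocytes and neutrophils, was even within each group: -1.46, -1.37 and -1.36 in sham and 5.38, 5.57 and 5.33 in VEGF (6.82 ± 0.34, adjusted p = 0.00018). The ferroxidase ceruloplasmin gene Cp rose by 3.09 ± 0.24 and Saa2 by 4.43 ± 0.42.

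Interferon-stimulated genes rose in 7 of 26 cases with a median of 1.98, and all 26 had a difference above 0. Their median per VEGF array was 2.84, 2.13 and 1.12, and 17 rose without the pair of arrays. Gbp2, a guanylate-binding protein induced by interferon gamma, was even at -0.78, -0.67 and -0.70 in sham and at 1.87, 2.01 and 1.74 in VEGF (2.59 ± 0.23, adjusted p = 0.00143). Ifitm1 rose by 3.78 ± 0.34, Ifitm3 by 3.16 ± 0.52 and the immunoproteasome subunit Psmb8 by 2.61 ± 0.44. The type I interferon genes Isg15 (2.12, adjusted p = 0.0807) and Ifit3 (1.97, adjusted p = 0.0816) did not pass. In both, sham array 2 was higher than the other sham arrays (1.30 for Isg15 and 0.79 for Ifit3) and VEGF array 3 was the lowest VEGF array (1.70 and 1.00). The Gbp2 promoter is shown because it carries the interferon element, at chr3:142620413-142620662 on the plus strand of GRCm38.p6, from RefSeq.
Gbp2: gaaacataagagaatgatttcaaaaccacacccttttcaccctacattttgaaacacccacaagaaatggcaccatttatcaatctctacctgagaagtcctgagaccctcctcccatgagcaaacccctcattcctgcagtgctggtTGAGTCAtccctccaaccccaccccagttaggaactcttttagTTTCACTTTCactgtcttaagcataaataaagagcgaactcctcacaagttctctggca

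In it the interferon-stimulated response letters matched at -59 to -50 and AP-1 letters at -102 to -96. The interferon element's letters were found in 3.04% of all promoters and in 8.02% of those of genes that rose.

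Antigen presentation genes had no called member among 17, with a median of 1.63, and 9 rose and 1 fell without the pair of arrays. H2-K1, a class I heavy chain, was at 5.90, 4.35 and 3.61 against 1.96, 2.43 and 2.18 (2.43, adjusted p = 0.0645). Cd74, the invariant chain of class II, was at 2.24, 1.29 and 0.39 against 0.06, -1.05 and -1.03 (1.98, adjusted p = 0.0915). In both genes every VEGF array lay above every sham array. The groups did not overlap for 13 of the 17, against 42.1% of all genes tested.

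Leukocyte adhesion genes bring cells from the blood through the vessel wall. Of 18 measured, 4 rose and 0 fell, the median was 1.65, and 10 rose and 1 fell without the pair. Icam1, the endothelial ligand of leukocyte integrins, rose by 3.50 ± 0.47 (adjusted p = 0.00921). The hyaluronan receptor Cd44 rose by 2.64 ± 0.38 (adjusted p = 0.0117). Sele, the endothelial selectin, was not well above background in sham (-9.10, -9.23 and -9.30) and reached -2.97, -5.71 and -5.33, at least 4.63-fold higher (adjusted p = 0.0123). Its endothelial relatives did not pass: Selp was at 2.48 (adjusted p = 0.0814) and Vcam1 at 0.55 (adjusted p = 0.342), the latter with overlapping groups. The Sele promoter is shown as that of the endothelial gene which went from background to detection, at chr1:164047984-164048233 on the plus strand of GRCm38.p6, from RefSeq.
Sele: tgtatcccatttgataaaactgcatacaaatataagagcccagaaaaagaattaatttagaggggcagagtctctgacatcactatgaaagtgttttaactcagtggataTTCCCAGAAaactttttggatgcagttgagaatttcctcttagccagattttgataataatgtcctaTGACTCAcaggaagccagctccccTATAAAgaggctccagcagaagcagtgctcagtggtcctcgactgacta

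Capitals are a STAT match at -140 to -132, an AP-1 match at -73 to -67 and a TATA match at -49 to -44.

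Genes of phagocytosis and lipid handling in myeloid cells rose in 8 of 24 cases, with a median of 2.14, and in 18 without the pair of arrays. Ch25h, which makes 25-hydroxycholesterol, rose by 5.42 ± 0.30 (adjusted p = 0.000208), from -4.08, -3.81 and -3.24 to 2.25, 1.36 and 1.53. Spp1, osteopontin, rose by 4.95 ± 0.65 (adjusted p = 0.00873) and the galectin Lgals3 by 6.17 ± 0.87 (adjusted p = 0.0107). For Lgals3, VEGF array 1 was at 6.28 and arrays 2 and 3 at 3.35 and 3.38. Trem2, a lipid receptor of microglia, was at 5.0, 2.47 and 2.78 against 1.74, 2.17 and 2.15 and did not pass (1.40, adjusted p = 0.232).

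The genes of the injected factor's own family did not pass. Of the 10 ligands, receptors and co-receptors, 0 were called by limma, 1 had an unadjusted p under 0.05, the median was 0.07, and 1, Flt4, rose without the pair of arrays (1.27, adjusted p = 0.0136). Mouse Vegfa was at 1.81, 2.04 and 2.30 in sham and at 2.61, 1.40 and 1.98 in VEGF, a difference of -0.06 ± 0.38 (adjusted p = 0.936), with VEGF arrays on both sides of sham. Kdr, the main signalling receptor, was at 2.95, 2.90 and 2.77 and at 3.37, 2.90 and 2.99 (0.21 ± 0.18, adjusted p = 0.474), while its other probe gave 0.86. Flt1, the high-affinity receptor that also serves as a decoy, was at 2.42, 3.04 and 2.98 and at 5.31, 3.53 and 3.25 (1.22 ± 0.61, adjusted p = 0.254). Flt4, the receptor for VEGF-C and VEGF-D, was at -5.96, -6.42 and -5.91 and at -2.84, -4.93 and -4.71 (1.93 ± 0.62, adjusted p = 0.134). For Flt1 and Flt4 every VEGF array lay above every sham array, with VEGF array 1 the highest. They were the 2 of the 10 whose groups did not overlap, against 42.1% of all genes tested.

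The other ligands Vegfb (-0.26 ± 0.20), Vegfc (0.16 ± 0.27), Vegfd (-0.59 ± 0.46) and Pgf (0.26 ± 0.22) and the neuropilins Nrp1 (-0.08 ± 0.28) and Nrp2 (-0.01 ± 0.35) had overlapping groups. The sign for Vegfa, Vegfc, Nrp1 and Nrp2 turned under some of the alternative settings, and a p that misses the threshold does not show that a gene was unchanged.

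**Figure D3:**
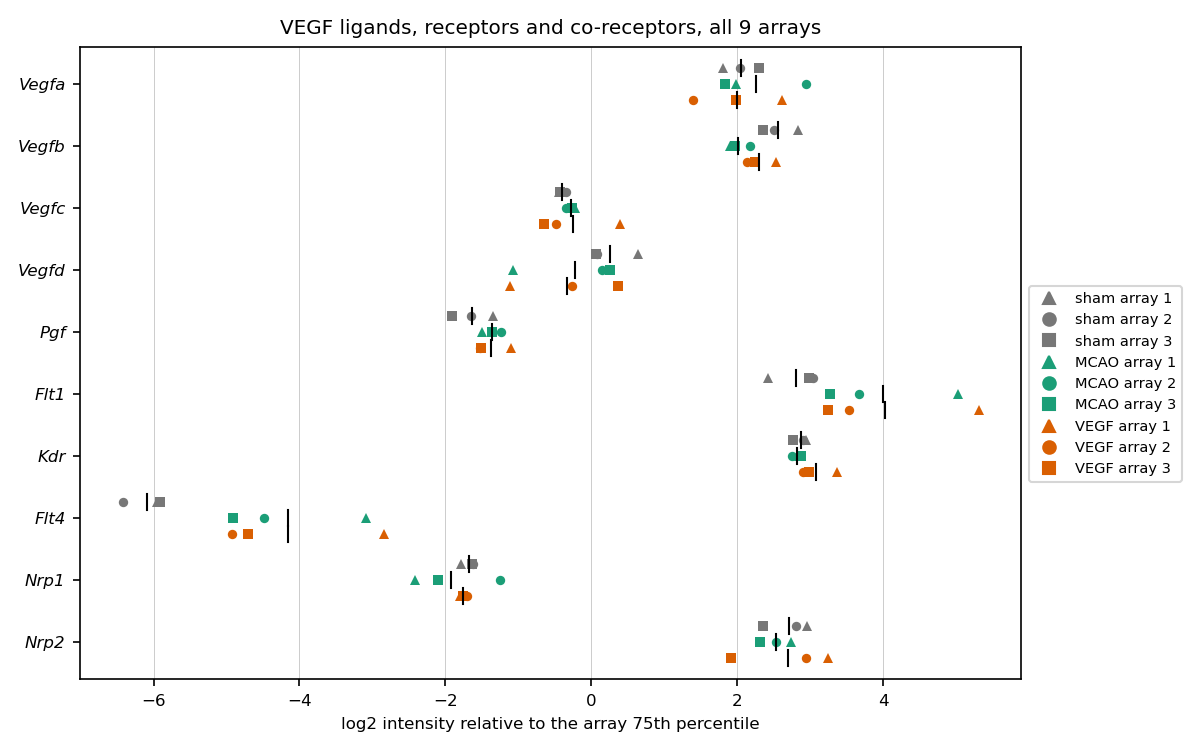
Level of the 10 VEGF ligands, receptors and co-receptors on all 9 arrays, as log2 processed intensity relative to the 75th percentile of the array (grey sham, green occlusion with vehicle, orange occlusion with VEGF, shape by array number, black bar group mean). Flt1 and Flt4 are the pair whose VEGF and sham arrays do not overlap, and on both, array 1 of VEGF and of MCAO lies highest. Of all genes tested, 42.1% had VEGF and sham arrays that do not overlap.

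Genes known to respond to VEGF or to mark sprouting tip cells rose in 3 of 23 cases, with 0 falls and a median of 0.85. Per VEGF array the median was 2.37, 0.35 and 0.30 above sham, so array 1 was high and the others were near sham. Without the pair of arrays 6 rose and the median was 0.27. Angpt2, the Tie2 ligand that loosens vessels for sprouting, was at -1.46, -1.21 and -1.57 in sham and at 3.70, 2.28 and 1.28 in VEGF (3.83 ± 0.61, adjusted p = 0.0176). The urokinase receptor gene Plaur rose by 5.60 ± 0.77 (adjusted p = 0.0104) and the protease gene Adamts1 by 4.24 ± 0.67 (adjusted p = 0.0176). Esm1, a tip-cell gene and a strong VEGF target in endothelium, was at -2.59, -2.90 and -2.90 in sham and at 3.76, -1.16 and -1.32 in VEGF (3.22 ± 1.35, adjusted p = 0.201). The tip-cell genes Apln (1.62, adjusted p = 0.198) and Dll4 (1.97, adjusted p = 0.202) likewise had array 1 far above arrays 2 and 3, at 4.13 against 1.99 and 1.46 for Apln and 0.08 against -2.88 and -2.88 for Dll4.

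Of 18 blood-brain barrier genes 0 rose and 1 fell, with a median of 0.54, and 3 rose and 3 fell without the pair of arrays. Slco1a4, an organic anion transporter of brain endothelium, was at 0.81, 0.74 and 0.56 in sham and at -1.62, -1.92 and -1.04 in VEGF (-2.23 ± 0.25, adjusted p = 0.00388). The tight-junction gene Cldn5 was at 5.88, 3.85 and 3.74 against 3.38, 3.09 and 3.28 and did not pass (1.24, adjusted p = 0.235). Mfsd2a, which restrains vesicle transport across the endothelium, was at 2.37, 2.76 and 2.27 against 1.70, 2.04 and 1.77 (0.63 ± 0.20, adjusted p = 0.126).

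Endothelial markers moved unevenly. Of 18, 0 rose and 1 fell (Slco1a4), and the median was 2.62 on VEGF array 1, 0.66 on array 2 and 0.47 on array 3. Without the pair 7 rose and 3 fell. Their part in the values of the vessel genes above was not tested.

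Proteases, inhibitors and matrix genes rose in 8 of 30 cases with 0 falls and a median of 1.81, and 16 rose and 1 fell without the pair. Beside Mmp3 and Timp1, the collagenases Mmp13 and Mmp8 were at least 4.99-fold and at least 33.6-fold higher, with no sham array well above background (adjusted p = 0.0149 and 0.0166). Mmp9, the gelatinase most often linked to barrier opening after stroke, was higher on every VEGF array (-1.91, -3.42 and -2.52 against -3.99, -4.74 and -4.53) and did not pass (1.80, adjusted p = 0.0854).

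Immediate early genes split. Of 21, 3 rose and 2 fell, with a median of 0.19 and medians of 1.68, -0.59 and -0.09 on the VEGF arrays, and 4 rose and 4 fell without the pair. Those that rose were Atf3 by 6.22 ± 0.73 (adjusted p = 0.00499), from -3.91, -3.72 and -3.80 to 4.23, 1.70 and 1.31, Maff by 5.52 ± 0.65, and Fosl1 by 4.41 ± 0.82 (adjusted p = 0.0305). Those that fell were Egr4 and Nr4a2. Among genes best known as neuronal activity reporters, Fos was at 4.81, 0.93 and 1.03 against 0.24, 0.53 and 1.67 in sham, with overlapping groups. Egr1 had a difference of 0.01 ± 0.91 and Arc of 0.03. MAP kinase phosphatases and feedback genes, which these signals induce, had no called member among 15 and a median of 0.63, with 4 rises without the pair.

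Stress responses rose in part. Of 18 heat shock and chaperone genes 2 rose, with a median of 0.79, and 9 rose and 1 fell without the pair. Hspb1, a small heat shock protein, was at 1.72, 2.41 and 2.32 in sham and 7.39, 7.09 and 6.37 in VEGF (4.80 ± 0.41, adjusted p = 0.00129). Hspa1a, the inducible Hsp70, was at 6.04, 2.73 and 2.85 against -0.55, -0.98 and -0.99 and did not pass (4.71 ± 1.06, adjusted p = 0.0634). In the unfolded protein and integrated stress response 2 of 20 rose, with a median of 0.87, and 13 without the pair. These were Sdf2l1 (1.34 ± 0.24) and Chac1 (1.05 ± 0.21), while the chaperone Hspa5 was at 0.95 (adjusted p = 0.0607).

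Of 26 genes of oxidative stress, haem and metals 6 rose, with a median of 0.98, and 12 rose and 1 fell without the pair. Cybb and Ncf1, subunits of the phagocyte NADPH oxidase, rose by 2.46 ± 0.29 and 2.04 ± 0.29. The metallothioneins Mt2 and Mt1 rose by 1.96 ± 0.28 and 1.44 ± 0.22. Hmox1, haem oxygenase 1, was at -1.52, -1.42 and -1.68 in sham and at 2.13, -0.09 and 1.17 in VEGF. It did not pass (2.61 ± 0.86, adjusted p = 0.139), and its other probe gave 1.04.

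Genes of hypoxia and glycolysis were called in 2 of 23 cases, with a median of -0.06, and in 3 without the pair. The vasodilator peptide adrenomedullin, Adm, rose by 2.69 ± 0.29 (adjusted p = 0.0033), from -2.05, -1.58 and -1.87 to 1.40, 0.28 and 0.87, and hexokinase 2, Hk2, by 2.41 ± 0.33 (adjusted p = 0.0106). The glucose transporter Slc2a1 was at 1.42 ± 0.49 (adjusted p = 0.146). Among p53 targets and cell death genes 8 of 28 rose, with a median of 1.18, and 19 without the pair. Pmaip1, the pro-apoptotic Noxa, rose by 3.29 ± 0.36, Casp4, the inflammatory caspase, by 3.88 ± 0.48, the TWEAK receptor Tnfrsf12a by 4.39 ± 0.55, and the death receptor Fas by 2.65 ± 0.34.

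The glucocorticoid response list rose in 6 of 18 cases, with a median of 1.44, and in 11 without the pair. Among its called members Lcn2, Mt1, Mt2 and Cdkn1a stand in other lists as well, and Fkbp5, the receptor co-chaperone, was even at 1.31, 1.53 and 1.48 in sham and 2.87, 2.94 and 3.39 in VEGF (1.62 ± 0.24, adjusted p = 0.0123). Of 30 growth and neurotrophic factor genes 3 rose, with a median of 0.44, and 7 rose and 1 fell without the pair. Gdf15, a stress-induced member of the TGF-beta family, rose by 6.47 ± 0.78, Hbegf by 2.75 ± 0.50 and Fgf2, an angiogenic and neurotrophic factor, by 2.72 ± 0.41. Bdnf was at -1.65, 0.56 and 0.64 against 0.23, 0.32 and 0.82, and its groups overlapped (-0.61 ± 0.77, adjusted p = 0.625).

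The medians of receptor, synaptic, channel and neuron marker lists were lower on VEGF array 1 than on the other VEGF arrays, where they were also below 0. All 24 glutamate and GABA receptor genes had a difference below 0, with a median of -1.16, but 0 passed, and the medians per VEGF array were -2.80, -0.74 and -0.61. Grin2b, an NMDA receptor subunit, was at 2.76, 2.02 and 2.60 in sham and -1.33, 1.00 and 1.45 in VEGF (-2.08 ± 0.83, adjusted p = 0.187). Gabra5, a GABA receptor subunit, was at -2.87 on VEGF array 1 and at 0.13 and 0.25 on arrays 2 and 3, against 2.00, 1.71 and 2.03 in sham (-2.74 ± 1.14, adjusted p = 0.199). Every VEGF array lay below every sham array for both subunits. The groups did not overlap for 14 of the 24, against 42.1% of all genes tested. Without the pair of arrays 10 of the 24 fell, against 11.3% of all genes, with a median of -0.68.

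All 24 synaptic vesicle and postsynaptic density genes were likewise below 0, with a median of -1.22 and medians of -2.52, -0.90 and -0.28 per VEGF array, and 1 passed. This was Shank3, a scaffold of excitatory synapses, at 3.20, 2.70 and 2.84 in sham and 1.32, 1.89 and 1.91 in VEGF. Its difference was -1.21 ± 0.25 (adjusted p = 0.0471, and 0.094 without VEGF array 1), and -0.38 with its other probe. The vesicular glutamate transporter Slc17a7 was at 3.03, 1.93 and 2.31 against -2.59, 0.56 and 1.87 (-2.48 ± 1.20, adjusted p = 0.246). Without the pair 3 fell. Potassium, sodium and calcium channel genes had no called member among 27, a median of -0.99 and 3 falls without the pair.

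Cholesterol synthesis, respiratory chain and clock genes had medians near that of all genes, and the median of cell division genes was above it. Cholesterol synthesis genes had 1 fall among 21, with a median of -0.27 and 5 falls without the pair. Mitochondrial respiratory chain genes had 0 called among 24 in limma, 0 at an unadjusted p under 0.05, and a median of -0.04. Of 19 cell division genes 1 rose, the replication helicase subunit Mcm3 (1.81 ± 0.34, adjusted p = 0.0347), with a median of 0.43, and 3 rose and 1 fell without the pair. No circadian clock gene of 17 was called, with a median of -0.09, and 2 rose and 1 fell without the pair.

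Cell type markers were read in the same way. Reactive astrocyte genes, a set that astrocytes switch on after injury, had the highest share of rises of all lists: 20 of 21, with a median of 3.84 and medians of 4.08, 3.39 and 3.60 per VEGF array, and 21 of 21 without the pair. Gfap, the astrocyte filament, was at 3.15, 3.11 and 2.97 in sham and 4.77, 5.57 and 5.08 in VEGF (2.06 ± 0.40, adjusted p = 0.0365, and 0.0537 without VEGF array 1). Vim, vimentin, rose by 3.72 ± 0.47 and the protease inhibitor Serpina3n by 4.11 ± 0.38. The member that did not pass was Nes, nestin, at 4.44, 2.63 and 1.87 against 0.31, 0.58 and 0.50 (2.52 ± 0.80, adjusted p = 0.131). Many of these genes are also made by other cells after injury, and general astrocyte markers had 1 rise among 12 (Gfap itself) with a median of 0.28, and 1 rise and 1 fall without the pair.

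Genes of myeloid cells rose as well, and whether these cells were incoming or resident was not tested. Of 16 monocyte and macrophage genes 10 rose, with a median of 3.97 and medians of 4.35, 3.72 and 3.51 per VEGF array, and 12 rose without the pair. Ms4a6d, a membrane protein of monocytes, rose by 5.51 ± 0.36 (adjusted p = 0.000405) and lysozyme, Lyz2, by 3.83 ± 0.29. Ccr2, the receptor for Ccl2 that marks inflammatory monocytes, was well above background on 1 sham array and went from -6.64, -7.15 and -7.29 to -0.98, -0.48 and -2.66 (5.65 ± 0.51, adjusted p = 0.00145).

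Of 15 neutrophil genes 7 rose, with a median of 3.66, and 8 without the pair, the medians per VEGF array being 3.64, 2.55 and 4.79. Cxcr2, the receptor for Cxcl1, was at least 19.2-fold higher, with no sham array well above background (adjusted p = 0.0014). S100a9, a subunit of the neutrophil protein calprotectin, went from -1.88, -0.71 and 0.13 to 6.28, 3.68 and 5.46 (5.96 ± 0.92, adjusted p = 0.0151). Granule genes made mainly by precursors in the bone marrow did not pass: Mpo was at 0.38 ± 0.44 and Elane at 0.53 ± 0.25, both with overlapping groups. Of 12 T, natural killer and B cell genes 2 rose, Cd3d (2.03 ± 0.29, adjusted p = 0.0111) and Gzmb (1.57 ± 0.33, adjusted p = 0.0476), with a median of 0.44, and 3 rose and 2 fell without the pair. Red blood cell genes, which show blood left in the tissue, had no called member among 7 and a median of 1.06, with no call without the pair.

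Homeostatic microglia markers did not move together. Of 12, 0 rose and 2 fell, with a median of 0.49, and 1 rose and 3 fell without the pair. P2ry12, the ADP receptor of resting microglia, was at 0.80, 1.06 and 0.96 in sham and -1.18, -1.65 and -1.30 in VEGF (-2.31 ± 0.20, adjusted p = 0.00122), a tight and complete separation, and Slc2a5 fell as given above. Among other markers of the same cells, Tmem119 was at -0.15 ± 0.25, Csf1r at 0.53 ± 0.43 and Cx3cr1 at 0.82 ± 0.31, with 0 of these 3 called. Over the whole list 7 members had a difference above 0 and 5 below 0.

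General neuron markers were below 0 in 16 of 16 cases with 0 called, a median of -0.91 and 3 falls without the pair. By array their median was -2.14, -0.42 and -0.17, the first value being that of VEGF array 1. Striatal medium spiny neuron markers, the core territory of this artery, had a median of -1.13 among 14 and no call, with 1 fall without the pair. Among them the dopamine receptor Drd1 differed by -1.44 ± 0.45 (adjusted p = 0.128). Cortex and hippocampus markers had a median of -1.34 among 12, with medians of -2.81, -1.47 and -0.14 per VEGF array, no call and 1 fall without the pair.

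Interneuron and neuropeptide markers had a median of -0.40 among 13, with no call and 1 fall without the pair. Oligodendrocyte and myelin markers (14, median 0.61) and their precursors' markers (10, median 0.15) had no call with or without the pair. Pericyte and smooth muscle markers had no call among 11 and a median of 0.26, with 1 rise and 2 falls without the pair. Ependymal and progenitor markers had no call among 10 and a median of 0.18, with 1 rise and 1 fall without the pair. Meningeal and fibroblast markers had 1 fall among 13, Myoc, the secreted glycoprotein myocilin, at 1.55, 0.68 and 0.72 in sham and -1.75, -0.90 and -1.39 in VEGF (-2.33 ± 0.38, adjusted p = 0.0195), a median of 0.09, and 3 rises and 2 falls without the pair.

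Markers of single brain structures differed between arrays of the same group. Ttr, transthyretin, the most abundant transcript of the choroid plexus that lines the ventricles, was at 6.63, 6.42 and 4.81 in sham, at 8.08, 5.16 and 6.14 in MCAO, and at -1.29, 7.18 and -1.96 in VEGF. VEGF arrays 1 and 3 were thus far below every other array and VEGF array 2 above all sham arrays, and the difference did not pass (-4.64 ± 2.15, adjusted p = 0.23). Over the 10 choroid plexus markers the medians relative to sham were -3.73, 1.30 and -3.53 on the VEGF arrays, 0.57, 0.57 and -1.15 on the sham arrays and 2.03, -1.0 and -0.22 on the MCAO arrays, with no call with or without the pair.

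Hypothalamic neuropeptides varied the same way between single arrays. Pmch, melanin-concentrating hormone, was at 3.22 on sham array 2 and 4.89 on VEGF array 2, and between -4.33 and -1.83 on the other 4 sham and VEGF arrays. Hcrt, orexin, was at 3.01 and 4.63 on these arrays and between -2.37 and -1.57 on the other 4. The 12 cerebellum, thalamus and hypothalamus markers had no call, a median of 0.37, medians of -0.59, 1.90 and -0.77 per VEGF array, and 1 fall without the pair. This median was -1.02 without VEGF array 2 and -0.23 without sham array 3. Since the sources do not say which brain region was taken, the share of each structure in a sample is unknown, and its part in the differences above was not tested.

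**Figure D4:**
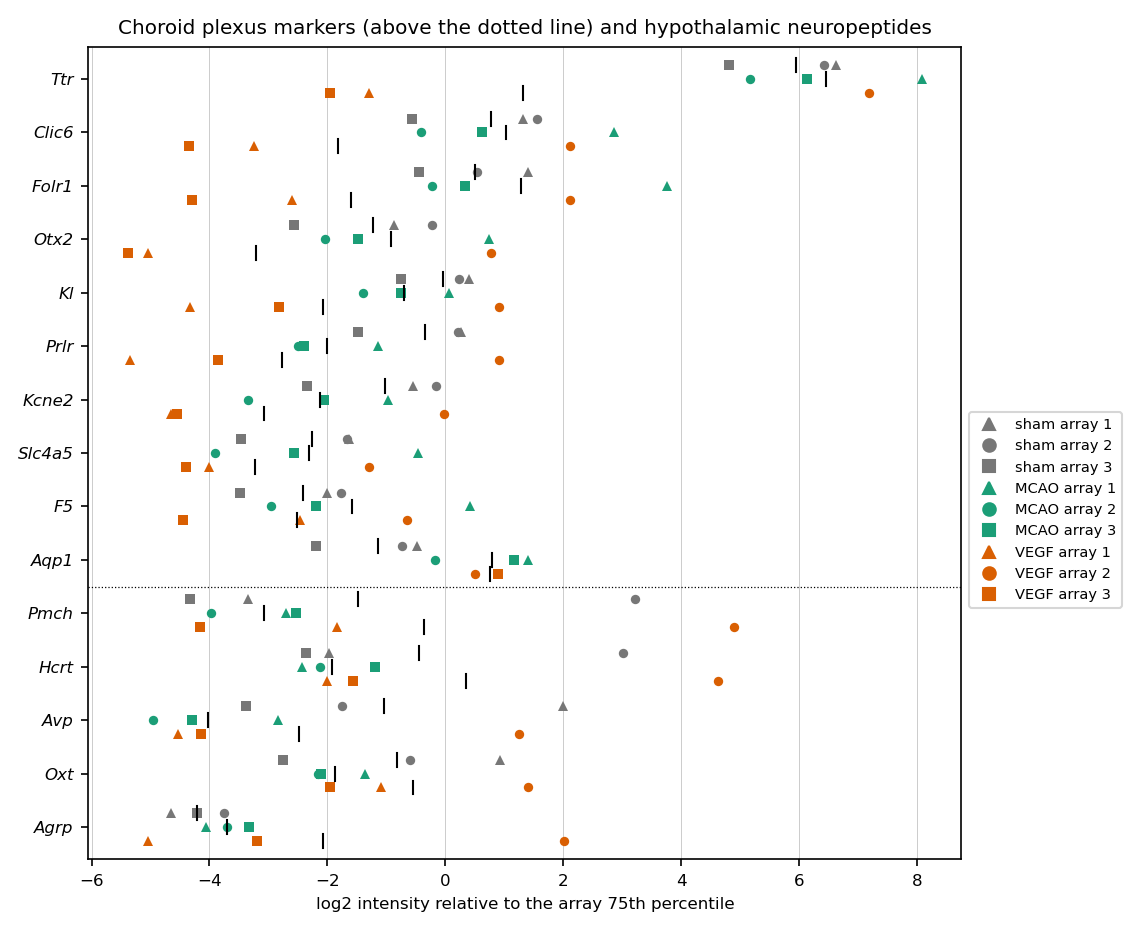
Level of 10 choroid plexus markers (above the dotted line) and 5 hypothalamic neuropeptides on all 9 arrays, as log2 processed intensity relative to the 75th percentile of the array (grey sham, green occlusion with vehicle, orange occlusion with VEGF, shape by array number, black bar group mean). Ttr is at -1.29 and -1.96 on VEGF arrays 1 and 3 and at 4.81 or higher on the other 7 arrays, and Pmch and Hcrt are high on sham array 2 and VEGF array 2.

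To see where occlusion with VEGF differed from occlusion with vehicle, the same genes were compared between the 3 VEGF and 3 MCAO arrays, which lie on the same slide. Of 30828 genes limma called 0 after Benjamini-Hochberg adjustment, and 848 (2.75%) had an unadjusted p under 0.05. MCAO against sham called 854 genes (2.77%), 693 higher (2.25%) and 161 lower (0.522%). The comparisons against sham share the sham arrays, so their values are only set side by side. Of the 748 genes called in VEGF against sham, 50 had an unadjusted p under 0.05 against MCAO, and the median half-width of the 95% interval of that difference was 0.883 log2 units. For a typical called gene, an interval taken alone could not set a smaller difference apart from 0. Passing the adjustment over all genes takes a larger difference, so the 0 calls do not show that differences above this width are absent.

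Saa3 differed from sham by 9.85 in VEGF and by 10.43 in MCAO, and VEGF minus MCAO was -0.58 with a 95% interval from -2.91 to 1.76. Ccl2 differed by 8.72 and 8.49, with 0.23 between the ischaemic groups (-1.21 to 1.66). Mmp3 was at least 293-fold higher in VEGF and at least 493-fold higher in MCAO, with a measured difference of -0.75 (-3.10 to 1.60). For Il6 the values were 7.18 and 8.59, and the difference of -1.42 had the widest interval of the 24 largest changes, from -4.39 to 1.56. Among the falls, Slc2a5 differed from sham by -3.15 and -3.30 (0.15 between them, -0.90 to 1.21), and Egr4 by -2.46 and -2.65 (0.19, -0.61 to 1.00). The intervals of all 24 included 0.

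For the VEGF family genes the 95% intervals of VEGF minus MCAO also included 0. Kdr, at 2.85, 2.75 and 2.87 in MCAO, was the member with every VEGF array higher (0.26, -0.16 to 0.69). Flt1 differed from sham by 1.22 in VEGF and 1.18 in MCAO (0.04 between them, -1.35 to 1.42), Flt4 by 1.93 in both (0.00, -1.42 to 1.42), and Angpt2, of the tip-cell list, by 3.83 and 3.56 (0.27, -1.12 to 1.66). Esm1 differed by 3.22 and 4.0 (-0.78, -3.87 to 2.31), an interval too wide to place it. The high values of the vessel genes on VEGF array 1 stood beside high values on MCAO array 1: for Esm1 these were 3.76 and 3.24, and for Flt1 5.31 and 5.03.

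**Figure D5:**
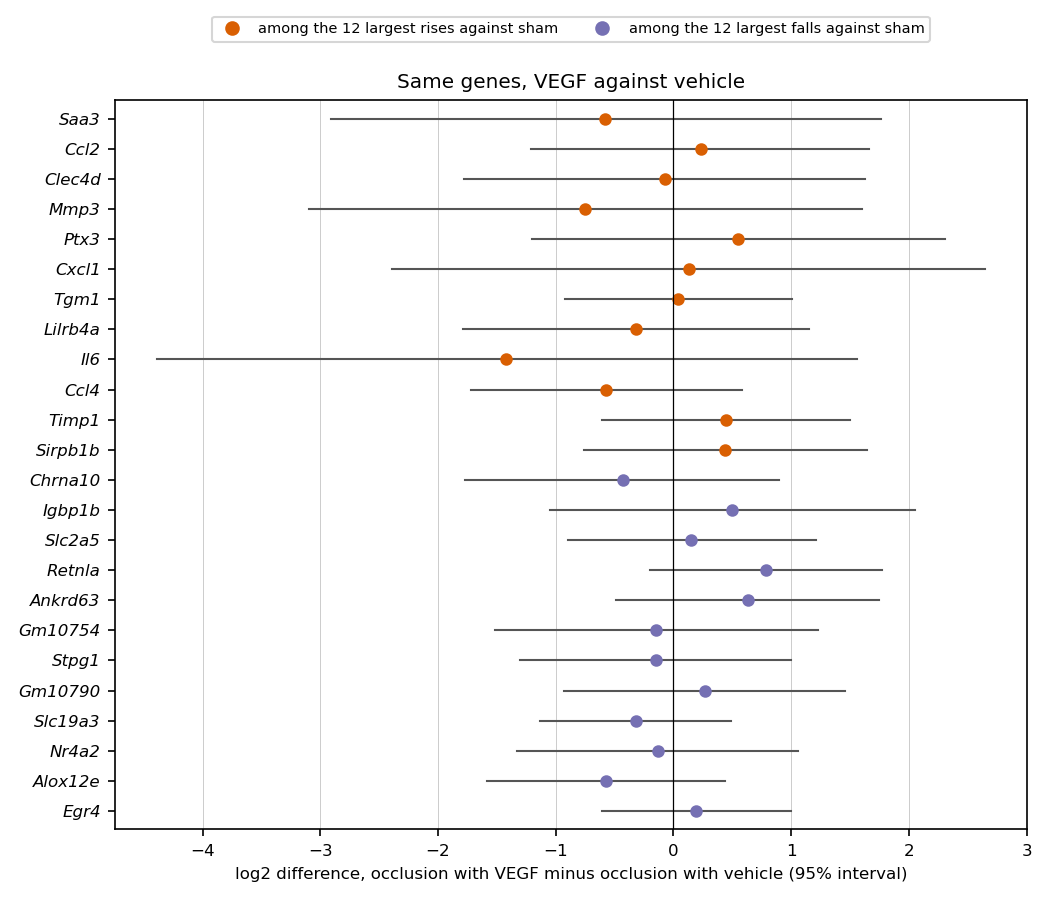
Difference between occlusion with VEGF and occlusion with vehicle, in log2 units with its 95% interval from the limma fit, for the 12 largest rises (orange) and 12 largest falls (purple) against sham. The vertical line is no difference, and every interval includes it. Il6 has the widest interval, from -4.39 to 1.56.

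By the rule that took the called genes with the smallest p against MCAO, Cnfn, cornifelin, a protein of the cornified envelope of skin, was the only one of 6 with a gene symbol. It was at -1.77, -1.99 and -1.75 in sham, -1.96, -2.41 and -2.09 in MCAO and -3.28, -2.98 and -2.92 in VEGF. VEGF differed by -1.23 ± 0.20 from sham (adjusted p = 0.0189) and by -0.91 from MCAO (95% interval -1.37 to -0.46). For the latter the unadjusted limma p was 0.00153 and the adjusted p 1.0. Cnfn was chosen by these p-values, so its distance from both groups is no support for a difference. MCAO differed from sham by -0.31 (adjusted p = 0.379).

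A few genes of the immune and stress lists were lower in VEGF than in MCAO without passing the adjustment, and they were chosen after their values were seen. C3, the central complement component, was at -0.16, -0.28 and -0.26 in sham, 3.02, 2.37 and 2.23 in MCAO and 1.41, 1.92 and 1.46 in VEGF. VEGF lay between the other groups, 1.83 ± 0.25 above sham (adjusted p = 0.0103) and -0.94 from MCAO (-1.52 to -0.36). Another C3 probe was among 12 left out because the processed intensity departed from the scanner's own columns. Il1rn, the natural antagonist of the interleukin-1 receptor, was not well above background in sham, at least 5.92-fold higher in VEGF and at least 16.8-fold higher in MCAO, with -1.51 between them (-2.53 to -0.48). Hmox1 was at 1.27, 4.75 and 4.0 in MCAO, where it passed against sham (4.88, adjusted p = 0.0245). VEGF minus MCAO was -2.27 (-4.24 to -0.29), but these groups overlapped, VEGF array 1 lying above MCAO array 1. None of these 3 differences between VEGF and MCAO passed the adjusted test.

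Interferon-stimulated genes had a median of 1.98 above sham in VEGF and 2.47 in MCAO, with 7 and 17 of 26 called. The median of the VEGF minus MCAO differences was -0.37 and 0 of the 26 were called in that comparison, so the lower count in VEGF is not a tested difference. It was the list with the largest gap in calls. Rises called in VEGF and in MCAO were 13 and 14 for chemokines, and 14 and 15 for cytokines and their receptors. They were 7 and 7 for complement and 20 and 19 for reactive astrocyte genes. Isg15 was at 3.22, 2.52 and 1.70 in VEGF and 3.63, 2.65 and 3.74 in MCAO (-0.86, -2.06 to 0.34), VEGF array 3 being the lowest of the 6. At the vessel wall, Slco1a4 was at -1.08, -0.82 and -0.76 in MCAO (-0.63, -1.20 to -0.07). The groups overlapped, VEGF array 3 being just above MCAO array 1. Mfsd2a was at 1.93, 1.88 and 1.92 in MCAO, below all VEGF arrays (0.56, 0.11 to 1.00). Neither passed adjustment over all genes.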

How the data were processed

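RNA from the brains of 9 mice, 200 ng per array, was labelled with Cy3 and hybridised to 1-colour Agilent arrays, per the labels' protocols. The deposited processed intensity of each spot was made with Feature Extraction 10.7.1.1, per the file headers, by background subtraction and division by a spatial trend, with a surrogate for values near background, and was not scaled between arrays. The trend at each spot is deposited as a ratio, and the detrending was not applied to MCAO array 1, per the file headers, and that array had a scan day of its own. A deposited table by the authors was read as log2 values, since the correlation of its columns with log2 intensity was 0.998 to 0.9999. Every column of it has a median of 6.97, and its normalization is not given in the sources used here.

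Each array's 75th percentile of log2 processed intensity, without control probes, was subtracted, and spots of a probe not marked as outliers were averaged. Tests used the 43908 of 55681 probes for which 1 group or more had all 3 arrays well above background. Left out were 12 probes whose processed intensity departed by over 1 log2 unit from a value recomputed from the same spot's columns. Symbols came from RefSeq (GRCm38.p6) for 26582 probes, the brightest probe stood for a gene, and 17582 tested items had a symbol and 13246 had none. All are called genes here. The tests were those of limma 3.58.1, run in R 4.3.3 (9 arrays in 1 model, no covariate, two-sided moderated tests), with p-values adjusted by Benjamini-Hochberg over all genes. Values after ± are standard errors with n = 3 arrays per group, and with 8.48 degrees of freedom the median standard error was 0.312 log2 units and the median half-width of a 95% interval was 0.712. The number of arrays limits the precision. The fit was tested on simulated data.

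Genes were named by rule: the 12 largest rises and falls with a symbol (a gene at background in the dimmer group ranked by its bound), up to 4 called members of smallest p in each list and up to 2 well-known members that did not pass, the 10 VEGF family genes, and the 6 called genes of smallest p against MCAO. The 12 rises and 12 falls were taken only from called genes whose VEGF and sham values did not overlap. They were also well above background on all 3 arrays of the brighter group. The members, lists and rule were chosen with earlier results of these data known. Values of some genes that the rule chose are not reported here. Same-numbered VEGF and MCAO arrays deviated together from their group means (correlations of 0.587, 0.224 and 0.558) and were taken as paired, each being above 0.1, although VEGF array 3 with MCAO array 2 gave 0.392 and VEGF array 2 with MCAO array 3 gave 0.234, whereas VEGF and sham arrays did not (-0.032, 0.135 and 0.112). The differences given are from the fit without a block. With the number as a block, VEGF against MCAO again called 0 genes, with 942 at an unadjusted p under 0.05. Promoter sequences came from RefSeq, with an entry for 80 of 95 named genes looked up.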

Additional observations from a re-analysis of the deposited data

How the results depend on the processing

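The 101 called genes chosen by the naming rule kept their direction under every alternative that gave them a value. With the replicate block, which joins arrays of the same number, 946 genes were called in VEGF against sham in place of 748 and 6 of the 101 missed the threshold. The count was 440 with normexp background correction (24 of the 101 missed the threshold), 1589 with median scaling, 7090 with array weights (44.6% higher, against 85.3%) and 6173 without VEGF array 1 and MCAO array 1 (43.7% higher). It was 1077 with only the sham and VEGF arrays in the fit (61.6% higher), and the other alternatives that keep all arrays gave 580 to 956. Leaving out 1 array gave 156 to 3270, the cause of the spread not being tested. Array weights were estimated gene by gene, since the default estimate did not converge.

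VEGF against MCAO called 2 genes with the probes of discrepant signal kept, 15 with array weights and 0 under every other alternative, each left-out array included. MCAO against sham called 854 genes, 1561 with age as a covariate, 551 with normexp, 12381 with array weights, 7013 without the pair, 1218 with the replicate block and 185 to 2564 without 1 array.

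Uncalled VEGF family genes changed sign. Vegfa went from -0.06 to 0.03 with median scaling, 0.35 with the mean of its probes, 0.07 without sham array 3 and 0.24 without VEGF array 2, and was lowest, at -0.36, without VEGF array 1. Vegfc went from 0.16 to -0.10 with array weights and to -0.17 without VEGF array 1 or without the pair, and was highest, at 0.36, without VEGF array 3. Nrp1 went from -0.08 to 0.05 with normexp and 0.01 with median scaling, and Nrp2 from -0.01 to 0.07 with median scaling, 0.03 with array weights, and 0.12, 0.04 and 0.38 without sham array 1, sham array 2 and VEGF array 3, with a lowest value of -0.28 without VEGF array 1. The median of all genes was -0.117, and -0.034 with median scaling and 0.021 with normexp. The medians of the lists of VEGF family, immediate early, hypoxia, respiratory chain, clock, pericyte, meningeal and ependymal genes changed sign under at least 1 alternative, and that of cerebellum, thalamus and hypothalamus markers changed from 0.37 to -1.02 without VEGF array 2 and -0.23 without sham array 3.

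With 3 arrays a group, 87 rises have only a lower bound because no sham array was well above background. Slide, injection and occlusion cannot be told apart in the differences from sham.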

Other observations

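Probes of the same gene did not always give the same size of difference between VEGF and sham. Of the genes in the lists or named by rule, 184 had several probes, and 18 of these were called, 0 of them with probes of opposite sign. Cd44 had 4 probes, with differences from 0.55 to 4.28 log2 units, and Msr1 had probes at 5.37 and 8.39. Csf2rb had probes at 1.23 and 3.83, and Vcam1, which was not called, at 0.55 and 1.48. For Vegfa, which was not called, the probes gave -0.06 and 0.75. Siglech, a microglia marker that was not called, had probes from -2.47 to 1.1, and Itgam, the integrin of myeloid cells, from -0.14 to 1.66. The level of a gene in the text is that of its brightest probe.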
